A study of Mus musculus with 6 samples.

Results

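Matrix metalloproteinases (MMPs), ADAM and ADAMTS proteases, tissue inhibitors of metalloproteinases (TIMPs) and the plasminogen activators were followed in Wnt1-YL cells, a line grown from an invasive mammary carcinoma of an MMTV-Wnt1 FVB/n mouse, in which the MMTV promoter drives Wnt1 in the mammary epithelium. Members were all genes whose symbol begins with Mmp, Adam or Timp followed by a digit or by ts, together with Plau, Plat, Plaur and Plg. They numbered 74 genes with 130 probe sets of their own, among 18193 genes and 45037 probe sets tested. A probe set is a set of short probes against one transcript, and values are those of a gene's brightest probe set (by mean log2 value) unless others are named. The members were 18 MMP, 28 ADAM, 20 ADAMTS or ADAMTS-like, 4 TIMP and 4 plasminogen system genes.

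The question was how gene expression differs once Sca-1, the GPI-anchored surface protein encoded by Ly6a, is knocked down. RNA of cultured cells carrying a lentiviral shRNA against Sca-1 (shSca-1, 3 arrays) was compared with that of cells carrying an shRNA against luciferase (shLuc, 3 arrays). Both kinds of cells were transduced with a pLKO vector, selected with puromycin and grown in serum with insulin and EGF, and both came from this 1 line. The labels call the replicates biological without saying whether they were separate cultures, so a p-value measures only the spread between these samples.

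MMPs are secreted or membrane-bound zinc proteases that cut collagens, laminins and other matrix proteins, and TIMPs bind and block their active site. ADAM proteases are membrane proteins that shed growth factors, cytokines and receptors from the cell surface, while ADAMTS proteases are secreted and cut proteoglycans and procollagens. Tissue and urokinase plasminogen activators convert plasminogen to plasmin, which degrades fibrin and can activate pro-MMPs. In the mammary gland these enzymes take part in branching, involution and tumor invasion.

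Values are linear intensities of the authors' array model, with array medians between 37.3 and 40.7, and no detection call was used, so values near or below these medians are described as dim. Ly6a was 285, 314 and 306 on shSca-1 replicates 1, 2 and 3, against 7646, 7362 and 2843 on shLuc replicates 1, 2 and 3. The array of shLuc replicate 3 stood apart from the others. The summed intensity of 6 luminal markers (Krt8, Krt18, Krt7, Krt19, Cdh1 and Epcam) was 270.1 to 293 on the shSca-1 arrays, against 275, 224 and 16571 on shLuc replicates 1, 2 and 3. The summed intensity of 3 basal markers (Krt5, Krt14 and Trp63) was 22211 to 26178 on the shSca-1 arrays, against 22618, 23025 and 11859 on the shLuc arrays. The highest correlation of shLuc replicate 3 with another array across probe sets was 0.924, against at least 0.957 for each other array. In RNA from whole cultures, fewer cells of a type and less RNA per cell cannot be told apart. Results are therefore also given without this array where it changes.

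Of the 74 members, 2 were higher and 1 was lower in shSca-1 cells in limma at p under 0.01, unadjusted, with more than 1.5-fold change. Mmp9 and Timp1 were the higher ones and Plat was the lower one. Over all 18193 genes, 0.528% were higher and 1.52% lower at these thresholds. At an adjusted p under 0.05 (Benjamini-Hochberg over all probe sets), limma called 0 members, as it called 0 genes in all. At an unadjusted p under 0.05 it gave 3 members higher and 6 lower, against 3.57% and 7.05% of all genes, and 0 members passed after adjustment by the methods' t-test. Without shLuc replicate 3, limma called 4 members at an adjusted p under 0.05, Mmp9 and Timp1 higher and Plat and Adam9 lower, where 1.17% of all genes were called higher and 2.73% lower.

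The members as a whole lay close to no difference. Their median log2 fold change of shSca-1 over shLuc was 0.08, with 40 of 74 above 0, against a median of -0.04 and 45.3% above 0 over all genes. Without shLuc replicate 3 the median of the members was -0.04 and that of all genes -0.04. Medians by family were 0.11 for the MMPs, 0.11 for the ADAMs, -0.03 for the ADAMTS group, -0.20 for the TIMPs and -0.86 for the plasminogen system. The medians of the MMPs and the TIMPs changed sign without that array, to -0.15 and 0.21. Those of the TIMPs and the plasminogen system rest on 4 genes each, and Plg, with a log2 fold change of -1.61, was dim. A mean intensity of 100 or more in at least 1 of the groups was reached by 24 members (51.0% of all genes reached it), that is 6 MMPs, 7 ADAMs, 6 of the ADAMTS group, 3 TIMPs and 2 plasminogen system genes. Another 41 members stayed under 64 on every array, as did 7183 of all 18193 genes. Among the 41 were 18 of the 28 ADAMs, many of which are known for expression in testis.

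**Figure D1:**
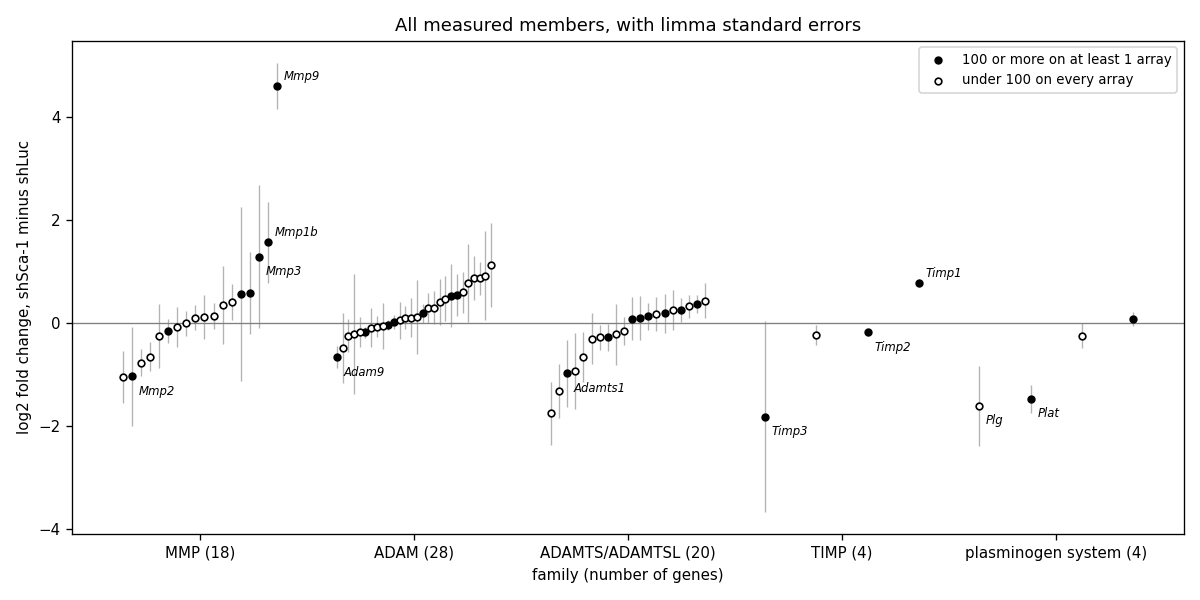
Log2 fold change of shSca-1 minus shLuc for all 74 members, sorted within each family. Points are genes, with filled points for genes at an intensity of 100 or more on at least 1 of the 6 arrays, and bars are limma standard errors. Mmp9 lies at 4.61, Timp1 at 0.78 and Plat at -1.47, and the wide bar of Timp3 reflects 1 shLuc array.

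Mmp9 encodes gelatinase B, which degrades denatured collagen and collagen IV of basement membranes. Its intensity was 347, 421 and 256 on shSca-1 replicates 1, 2 and 3, against 17.9, 21.4 and 6.74 on shLuc replicates 1, 2 and 3. All 3 shSca-1 arrays lay above all 3 shLuc arrays, and the shLuc values were dim. The log2 fold change was 4.61 (standard error (SE) 0.45, limma adjusted p = 0.057), the largest of the 18193 genes by main probe set on 6 arrays. The other probe set of Mmp9 read 265, 267 and 135 on the shSca-1 arrays, against 20.4, 19.3 and 6.80 on the shLuc arrays, with a log2 fold change of 3.94 (SE 0.49, limma adjusted p = 0.080). Without shLuc replicate 3, the main probe set had a log2 fold change of 4.09 (SE 0.23, limma adjusted p = 8.0e-04). Because the shLuc values were dim, the size of the change depends on how low values are treated, and it was 2.38 on the log2 scale when intensities under 64 were set to 64.

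Mmp9 is also a product of neutrophils and macrophages. The summed intensity of 9 leukocyte markers was between 776 and 931 on the shSca-1 arrays, against 939.9, 949 and 1378 on shLuc replicates 1, 2 and 3. None of the 9 passed p under 0.01 with more than 1.5-fold change, and 5 had a log2 fold change above 0. The shLuc sums were raised by Cd68, a macrophage marker with 53.9, 77.6 and 212 on the shSca-1 arrays, against 311, 298 and 32.9 on the shLuc arrays, and by Cd14, a monocyte marker with 158, 188 and 165 on the shSca-1 arrays, against 144, 123 and 809.9 on the shLuc arrays. Lyz2, the lysozyme of myeloid cells, had higher values on every shSca-1 array, with 57.5, 65.5 and 61.6, against 46.4, 47.4 and 42.4 on the shLuc arrays (log2 fold change 0.44, SE 0.19, limma adjusted p = 0.54). Adgre1, Csf1r and Ngp also reached 100 on arrays of both groups, and Mpo stayed at 86.8 or less. Ptprc, the common leukocyte antigen, was at most 20.5 on any array, with a log2 fold change of 1.04 (limma adjusted p = 0.60), and Itgam, an integrin of myeloid cells, was at most 22.4. The part of such cells in the Mmp9 values was not tested.

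Timp1 encodes a secreted inhibitor that binds most MMPs and forms a complex with pro-MMP9. Its intensity was 5692, 6280 and 6345 on the shSca-1 arrays, against 3450.3, 3530 and 3706 on the shLuc arrays. The groups did not overlap, and the values of shLuc replicate 3 lay with those of the other shLuc arrays. The means were 6106 ± 359.8 in shSca-1 cells and 3562 ± 131 in shLuc cells (SD, n = 3 each), a log2 fold change of 0.78 (SE 0.08, limma adjusted p = 0.060), and with 2 shLuc arrays, leaving out replicate 3, it was 0.81 (limma adjusted p = 0.0036).

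Timp2, which inhibits MMPs and also takes part with MMP14 in the activation of pro-MMP2, differed little. It had 3539, 3671 and 3649 on the shSca-1 arrays, against 4123, 4109 and 4069 on the shLuc arrays. The groups did not overlap, and the log2 fold change was -0.18 (SE 0.07, limma adjusted p = 0.53). Of its other 5 probe sets, 4 had log2 fold changes between -0.41 and -0.14, and the remaining one, at 63.8 or less on every array, had 0.10. Timp4 was 67.4, 57.3 and 59.5 on the shSca-1 arrays, against 67.8, 86.5 and 63.1 on the shLuc arrays, and its groups overlapped (log2 fold change -0.23, limma adjusted p = 0.77). The second probe set of Timp4 ran the other way, with 12.4, 18.9 and 8.50 on the shSca-1 arrays, against 2.52, 2.02 and 5.62 on the shLuc arrays (log2 fold change 2.04, SE 0.57, limma adjusted p = 0.35). These values were dim, and the mean over both probe sets gave a log2 fold change of 0.91 (limma adjusted p = 0.49).

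Plat encodes tissue plasminogen activator. Its intensity was 131, 169 and 89.7 on the shSca-1 arrays, against 413, 377 and 274 on the shLuc arrays. Every shSca-1 value lay below every shLuc value. The means were 129.96 ± 39.6 in shSca-1 cells and 355 ± 71.9 in shLuc cells (SD, n = 3 each), and the log2 fold change was -1.47 (SE 0.27, limma adjusted p = 0.18). It was -1.65 without shLuc replicate 3 (limma adjusted p = 0.017). A second probe set of Plat was dim, with at most 24.0 on any array, and had a log2 fold change of 0.75 (limma adjusted p = 0.72).

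Plaur and Plau did not pass. Plaur, which encodes the urokinase receptor and, like Sca-1, a GPI-anchored protein of the Ly6/uPAR family, was 503, 501 and 406 on the shSca-1 arrays, against 405, 445 and 488 on the shLuc arrays. Its log2 fold change was 0.07, with a 95% interval of -0.25 to 0.39. Plau, which encodes urokinase itself, was 54.1, 62.6 and 50.4 on the shSca-1 arrays, against 59.9, 54.4 and 87.3 on the shLuc arrays, so that the groups overlapped. On its second probe set Plau was 36.5, 39.4 and 26.4 on the shSca-1 arrays, against 45.0, 39.3 and 152 on the shLuc arrays, with shLuc replicate 3 above all others. Plg, the gene of plasminogen, which is made chiefly in liver, was dim, with 9.58, 1.22 and 2.47 on the shSca-1 arrays, against 8.32, 8.45 and 11.6 on the shLuc arrays (log2 fold change -1.61, SE 0.78, limma adjusted p = 0.60).

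**Figure D2:**
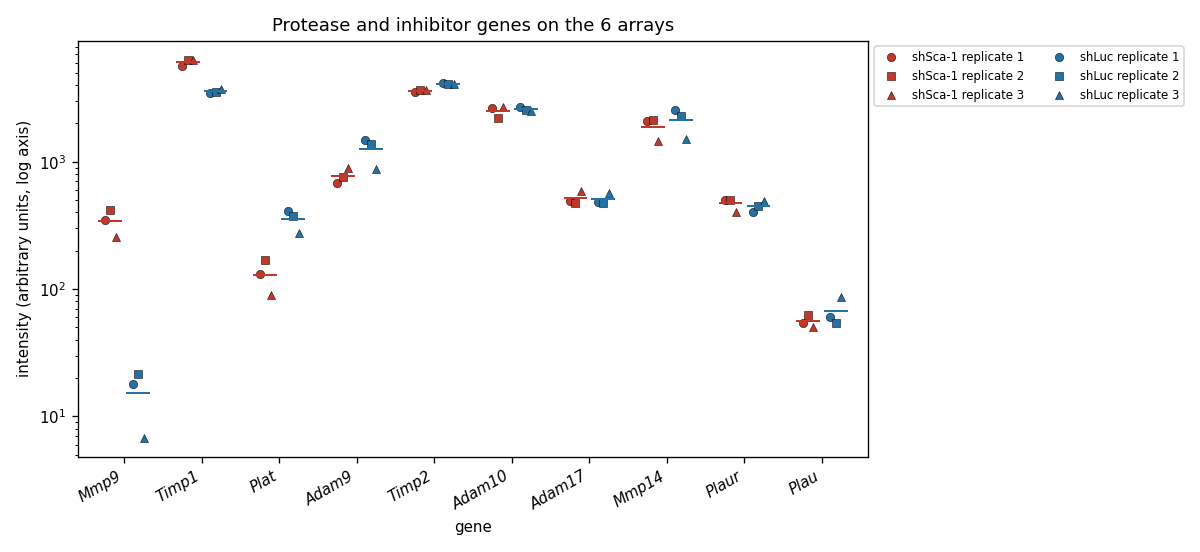
Intensity of 10 members on the 6 arrays, on a log axis in arbitrary units. Points are arrays, with shSca-1 in red and shLuc in blue and a symbol for each replicate number, and lines are means of 3 arrays. Mmp9 lies between 256 and 421 on the shSca-1 arrays and between 6.74 and 21.4 on the shLuc arrays, while the groups overlap for Adam10, Adam17, Mmp14, Plaur and Plau.

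Adam9, a membrane-bound metalloprotease of epithelial cells, was the ADAM member with the smallest p. It had 675, 751 and 885 on the shSca-1 arrays, against 1492, 1368 and 882 on the shLuc arrays. The array of shLuc replicate 3 lay just under the highest shSca-1 array, so the groups overlapped. The means were 771 ± 106 in shSca-1 cells and 1247 ± 322 in shLuc cells (SD, n = 3 each), a log2 fold change of -0.67 (SE 0.21, limma adjusted p = 0.42). Without shLuc replicate 3, Adam9 had a log2 fold change of -0.90 (SE 0.12, limma adjusted p = 0.012).

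The principal sheddases and the membrane-type MMP did not pass. Adam10, which sheds Notch receptors and cadherins, had 2644, 2209.9 and 2710.1 on the shSca-1 arrays, against 2671, 2563 and 2490.2 on the shLuc arrays. Its log2 fold change was -0.04, with a 95% interval of -0.28 to 0.21. Adam17, which sheds TNF and ligands of the EGF receptor, had 487, 473 and 594 on the shSca-1 arrays, against 484, 475 and 564 on the shLuc arrays, a log2 fold change of 0.03 with an interval of -0.29 to 0.34. Their groups overlapped almost fully. Adam15, a disintegrin protease of epithelial and endothelial cells, had a log2 fold change of -0.18 (interval -0.42 to 0.07). Mmp14 encodes a membrane-type MMP that cuts collagen at the cell surface and activates pro-MMP2. It was 2086, 2116 and 1457 on the shSca-1 arrays, against 2549, 2296 and 1519.7 on the shLuc arrays, with a log2 fold change of -0.16 and an interval of -0.70 to 0.39.

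Mmp3, Mmp10 and Mmp13 varied more between arrays of the same group than between the groups. Mmp3 and Mmp10 encode stromelysins, which cut many matrix proteins and activate other pro-MMPs, and Mmp13 encodes the main interstitial collagenase of the mouse. They are neighbours, with Mmp12, Mmp1b, Mmp1a, Mmp8, Mmp27, Mmp20 and Mmp7, in a cluster of 10 MMP genes with no other protein-coding gene between them in the reference (GRCm38.p6), and 9 of the 10 were measured. The 4 genes of this cluster that reached 100 on an array shared their highest and their lowest array. For this reason the stretches just upstream of their transcript starts are shown. They are RefSeq sequences of GRCm38.p6, 120 bases each, 5′ to 3′ on the gene's strand, and end at the base before the start. Capitals mark the AP-1 motif TGACTCA or its reverse complement TGAGTCA.
Mmp13 (chr9:7272394-7272513, + strand): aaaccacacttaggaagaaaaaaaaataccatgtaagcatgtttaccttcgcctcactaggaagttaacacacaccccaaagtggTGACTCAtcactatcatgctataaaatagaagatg
Mmp1b (chr9:7388027-7388146, - strand): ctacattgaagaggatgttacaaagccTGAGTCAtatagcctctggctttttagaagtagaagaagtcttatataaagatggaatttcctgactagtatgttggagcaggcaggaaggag
Mmp3 (chr9:7445702-7445821, + strand): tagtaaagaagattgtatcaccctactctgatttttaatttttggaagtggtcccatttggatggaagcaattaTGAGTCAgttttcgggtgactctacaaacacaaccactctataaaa
Mmp10 (chr9:7502222-7502341, + strand): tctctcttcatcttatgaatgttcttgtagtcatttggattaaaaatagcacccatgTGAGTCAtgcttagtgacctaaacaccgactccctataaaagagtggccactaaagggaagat

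The motif begins 35, 93, 46 and 63 bases upstream of the start in Mmp13, Mmp1b, Mmp3 and Mmp10. Searching both strands of windows of 300 bases, from 250 upstream of a start to 50 into the transcript, 5.2% of 32851 windows held it. Of the 9 measured genes of the cluster, 7 had a window with the motif, and of 33 other members with a window 3 did, Plaur, Adam19 and Adam1b. A gene was counted if any of its windows held the motif, so these counts and the share of windows are unlike measures. Mmp12, Mmp7 and Adam19 also had windows without it, and the match of Adam1b lies past the start. Mmp1a, Mmp12 and Mmp7 hold it as well and were dim, at most 40.3 on any array. A match is a description of the letters only.

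Mmp13 was 64.8, 80.4 and 1096 on shSca-1 replicates 1, 2 and 3, against 455, 393 and 9.92 on shLuc replicates 1, 2 and 3. Mmp3 was 438, 474 and 2229 on the shSca-1 arrays, against 1031, 982 and 31.1 on the shLuc arrays. Mmp10 was 199.8, 233 and 668 on the shSca-1 arrays, against 395, 386 and 60.4 on the shLuc arrays. In all 3 genes shSca-1 replicate 3 was the highest array, shLuc replicate 3 the lowest, and shSca-1 replicates 1 and 2 lay below shLuc replicates 1 and 2. Mmp1b, a paralogue of the interstitial collagenase gene, was 37.97, 55.9 and 169 on the shSca-1 arrays, against 40.01, 41.9 and 8.18 on the shLuc arrays, with the same highest and lowest array. Mmp1a and Mmp1b are close copies, and whether their probe sets share signal was not tested.

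On 6 arrays the log2 fold changes were 0.56 for Mmp13, 1.29 for Mmp3, 0.58 for Mmp10 and 1.57 for Mmp1b, with standard errors of 1.69, 1.39, 0.80 and 0.78 (limma adjusted p = 0.94, 0.82, 0.86 and 0.61). Mmp13 had -0.33 when intensities under 64 were set to 64. Without shLuc replicate 3, Mmp13 had -1.24, Mmp3 -0.38 and Mmp10 -0.31 (limma adjusted p = 0.64, 0.83 and 0.80). With both arrays numbered 3 left out, an alternative chosen after seeing the data, the log2 fold changes were -2.55 for Mmp13, -1.14 for Mmp3 and -0.86 for Mmp10 (limma adjusted p = 9.2e-05, 1.7e-04 and 0.0026), where 9.21% of all genes were lower and 3.19% higher at an adjusted p under 0.05. At p under 0.01 with more than 1.5-fold change, 5 members were lower there (Plat, Adam9, Mmp13, Mmp3 and Mmp10), against 4.49% of all genes. The sign of Mmp13, Mmp3 and Mmp10 thus turned when shLuc replicate 3 was left out. Their adjusted p passed when shSca-1 replicate 3, the highest array in all 3 genes, was left out as well. Because that array was left out after its values were seen, these adjusted p-values are a description only. Among the markers, Trp63, a basal transcription factor, was 1531, 1464 and 2898 on the shSca-1 arrays, against 2950.2, 2869.7 and 939 on the shLuc arrays, and Cd68 had the values given above. In both, shSca-1 replicate 3 was the highest shSca-1 array and shLuc replicate 3 the lowest of all arrays. Krt5 and Krt14 were highest of all on shSca-1 replicate 3 and lowest on shLuc replicate 3. By contrast, Cd14, Csf1r and all luminal markers were highest on shLuc replicate 3. The part of these markers in the values was not tested.

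The same highest and lowest arrays were seen beyond the cluster. Of 27 members at 100 or more on at least 1 array, 8 were highest on shSca-1 replicate 3 and lowest on shLuc replicate 3, against 9.23% of 9848 such genes. The 4 outside the cluster were Adam8, Adamtsl4, Adamtsl3 and Adam11. Adam8, a metalloprotease of leukocytes and invasive tumor cells, was 93.2, 97.8 and 234 on the shSca-1 arrays, against 143, 138 and 35.4 on the shLuc arrays. The pattern was noticed in these values and carries no test, and 5 of the 27 (Mmp13, Mmp3, Mmp10, Adam8 and Adamtsl4) also had shSca-1 replicates 1 and 2 below shLuc replicates 1 and 2, against 3.52% of the 9848 genes.

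**Figure D3:**
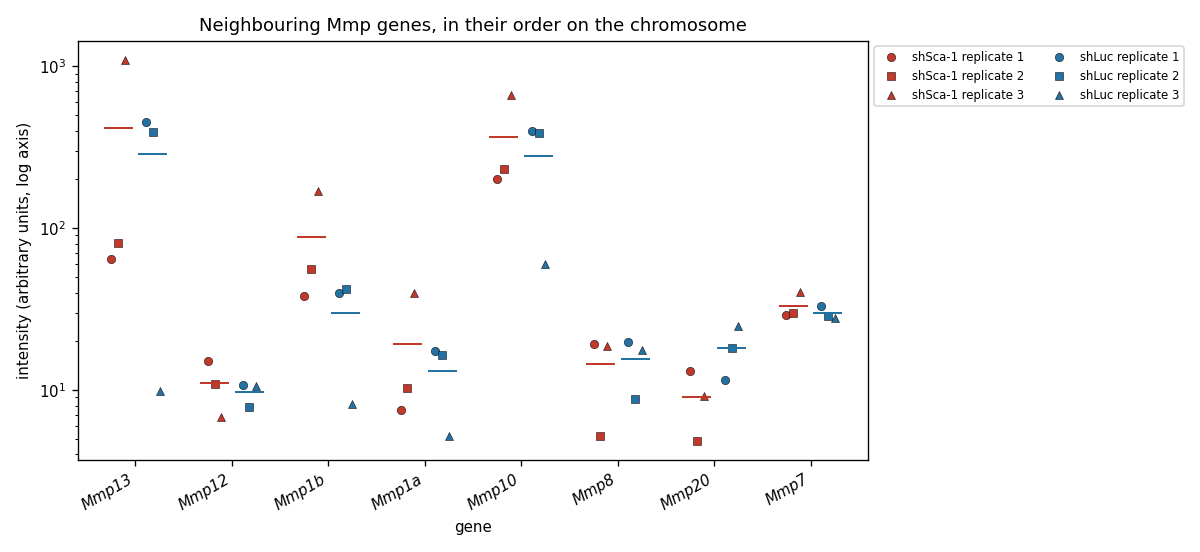
Intensity of the measured neighbouring Mmp genes other than Mmp3 in 6 RNA samples (log axis, arbitrary units), in their order on the chromosome. Points are arrays, with shSca-1 in red and shLuc in blue and a symbol for each replicate number, and lines are means of 3 arrays. For Mmp13, Mmp1b and Mmp10 the array of shSca-1 replicate 3 is the highest and that of shLuc replicate 3 the lowest.

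Another 4 of the 27 members were lower on both arrays numbered 3 than on the other 4 arrays, Mmp14, Adam12, Adamts4 and Adamts7, against 5.62% of the 9848 genes. Adam12, a metalloprotease of mesenchymal and tumor cells, was 1101, 1062 and 676 on the shSca-1 arrays, against 898, 861 and 326 on the shLuc arrays, a log2 fold change of 0.55 (SE 0.41, limma adjusted p = 0.73). Adamts4, an aggrecanase, was 241, 255 and 128 on the shSca-1 arrays, against 284, 221 and 104 on the shLuc arrays. The groups overlapped in each of the 4 genes.

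Timp3, Mmp2 and Adamts1 were high on shLuc replicate 3 alone. Timp3, which encodes the TIMP that binds to the matrix and also blocks ADAM17, was 39.4, 26.1 and 53.0 on the shSca-1 arrays, against 22.7, 27.2 and 3871 on the shLuc arrays. Its other 3 probe sets read 1623, 2394 and 5139.9 on shLuc replicate 3 and at most 72.1 elsewhere. Mmp2, the gene of gelatinase A, was 26.0, 30.9 and 31.2 on the shSca-1 arrays, against 29.5, 22.1 and 332 on the shLuc arrays. Its second probe set was 505 on shLuc replicate 3 and at most 38.4 elsewhere. Adamts1, an aggrecanase and versicanase, was 159, 215 and 234 on the shSca-1 arrays, against 244, 199.6 and 1247 on the shLuc arrays.

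These 3 members were at 100 or more on shLuc replicate 3 and at least 4 times every other array, as were 1.58% of all genes. No member met this on any other array, where 6 genes in all did, each on shSca-1 replicate 3 (0.033%). The luminal markers were also high on shLuc replicate 3. The summed intensity of 7 fibroblast markers (Col1a1, Col1a2, Col3a1, Pdgfra, Pdgfrb, Dcn and Lum) was 402 to 435 on the shSca-1 arrays. On shLuc replicates 1, 2 and 3 it was 219, 174 and 380. None of the 7 passed p under 0.01 with more than 1.5-fold change in limma, and their median log2 fold change was -0.10. The part of luminal or fibroblast markers in the values of any member was not tested. On 6 arrays the log2 fold changes were -1.82 for Timp3, -1.04 for Mmp2 and -0.97 for Adamts1 (limma adjusted p = 0.81, 0.78 and 0.70), and without shLuc replicate 3 they were 0.61, 0.20 and -0.14 (limma adjusted p = 0.47, 0.83 and 0.78). Mmp3 was the member at 100 or more on the 5 other arrays and, on shLuc replicate 3, over 4 times lower than each of them, as were 0.731% of all genes.

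**Figure D4:**
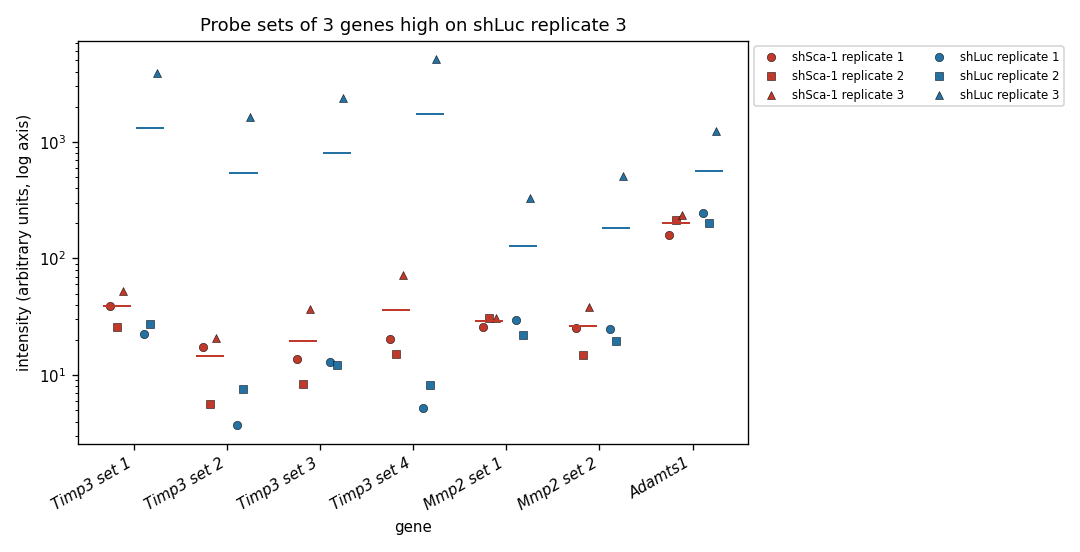
Intensity of the 4 probe sets of Timp3, the 2 of Mmp2 and the 1 of Adamts1 on the 6 arrays, on a log axis in arbitrary units. Points are arrays, with shSca-1 in red and shLuc in blue and a symbol for each replicate number, and lines are means of 3 arrays. The array of shLuc replicate 3 lies above all others in each of the 7 probe sets, with 3871 against at most 53.0 for the first Timp3 probe set.

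Groups without overlap were seen in 4 members higher and 5 lower in shSca-1 cells, against 7.18% and 11.5% of all genes. Besides Mmp9, Timp1, Timp2 and Plat these were Adamtsl3, Adam32, Mmp19, Adamts15 and Adamts19, of which Adamtsl3 alone reached 100. Adamtsl3, an ADAMTS-like matrix protein gene without a protease domain, was 282, 312 and 412 on the shSca-1 arrays, against 276, 268 and 227 on the shLuc arrays, a log2 fold change of 0.37 (SE 0.17, limma adjusted p = 0.59). The lowest shSca-1 array thus lay only slightly above the highest shLuc array. Adam32, Mmp19, Adamts15 and Adamts19 stayed at 67.5 or less on every array. For each of these 9 members the exact permutation test (two-sided) gave p = 0.1, the smallest that 3 arrays per group allow.

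Of 46 listed genes that activate, anchor or inhibit these proteases, 43 were measured, and 0 passed p under 0.01 with more than 1.5-fold change in limma, or by the methods' t-test. At an unadjusted p under 0.05, 2 were higher and 0 lower, where 3.57% and 7.05% of all genes were. They were Anxa2, a plasminogen receptor subunit, with a log2 fold change of 0.27 (limma adjusted p = 0.35), and Cd44, a hyaluronan receptor that docks MMP9 at the cell surface, with 0.24 (limma adjusted p = 0.48). The median log2 fold change of the 43 was -0.09, with 18 above 0. Without shLuc replicate 3, 3 of the 43 passed (Lcn2 higher, Lrp1 and Reck lower), against 3.99% of all genes, and without both arrays numbered 3, 4 passed, against 5.75%. Furin, the protease that activates membrane-type MMPs and many ADAMs, had 0.07.

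Lcn2, which encodes lipocalin-2, a protein that binds MMP9 and slows its degradation, depended on shLuc replicate 3. It was 591, 539.6 and 454 on the shSca-1 arrays, against 316, 334 and 1641 on the shLuc arrays. Its log2 fold change was -0.09 on 6 arrays (limma adjusted p = 0.98) and 0.69 without that array (limma adjusted p = 0.031), the 1 regulator with an adjusted p under 0.05 there. Serpinb2, which encodes an inhibitor of plasminogen activators, was, like Mmp3, highest on shSca-1 replicate 3 and lowest on shLuc replicate 3. It was 449, 431 and 1809 on the shSca-1 arrays, against 772, 732 and 80.6 on the shLuc arrays, with a log2 fold change of 0.98 (SE 0.96, limma adjusted p = 0.80). Reck, a membrane-anchored inhibitor of MMPs, was 37.6, 32.0 and 31.1 on the shSca-1 arrays, against 59.0, 59.7 and 24.6 on the shLuc arrays. These genes outside the members were named after their values were seen.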

How the data were processed

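The authors hybridized RNA of the 6 samples to Affymetrix mouse genome arrays and computed intensity values with dChip, by the PM-MM model with invariant set normalization. The deposited intensities are linear, and 1.12% are exactly 1. No genome build is given for the probe sets in the sources used here. The number of arrays limits the precision.

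Leaving out 64 control probe sets, intensities were floored at 1 and log2 transformed. Probe sets were named from the platform's annotation, and all 130 member symbols matched RefSeq through their Entrez identifiers. Another 5 probe sets that a member shares with a second gene, and 15 genes of these families with no probe set of their own, were not analysed here. Ly6a was matched through the study's supplementary list. limma 3.58.1 in R 4.3.3 (lmFit, eBayes with a variance trend) was fitted on all 45037 probe sets without a replicate block. The fit was also run on simulated data with independent noise, in which no array stood apart as shLuc replicate 3 does. Members and gene lists were chosen with earlier results of these data known.

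Named with values were members at an unadjusted p under 0.05 and a mean of 100 or more, members past an adjusted p under 0.05 without shLuc replicate 3, the 3 brightest of each family, all TIMP and plasminogen genes, genes set apart by 1 array, regulators past p under 0.01 and 1.5-fold (none), and Mmp2, Mmp14, Adam10 and Adam17. Other named genes were chosen after their values were seen. Alternatives were other normalizations, floors of 16 and 64, a filter at the 40 percentile, no variance trend, the methods' t-test, the mean of a gene's probe sets, a replicate block, each array left out and, added later, both arrays numbered 3 left out.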

Additional observations from a re-analysis of the deposited data

How the results depend on the processing

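Mmp9 and Timp1 stayed higher at an unadjusted p under 0.01 and a fold over 1.5 under all 16 alternatives, and Plat stayed lower under all but the mean of a gene's probe sets, which left 0 members lower (the second probe set of Plat had a log2 fold change of 0.75, opposite in sign to -1.47 for the main one). The count of 1 member lower was 2 without a variance trend, 1 to 2 when 1 array was left out (Adam9 joined without shLuc replicate 3, Plg without shSca-1 replicate 1), and 5 without both arrays numbered 3. The count of 0 members at an adjusted p under 0.05 was 2 after centring each array on its median and with the filter at the 40 percentile, 1 with a floor of 16, 0 to 4 when 1 array was left out (4 without shLuc replicate 3), and 9 of 74 without both arrays numbered 3, where 3.19% of all genes were higher and 9.21% lower. Of the regulators, 0 to 3 passed when 1 array was left out (3 without shLuc replicate 3, 1 without shSca-1 replicate 3) and 4 without both arrays numbered 3. With the replicate number as a block, limma gave 2 members higher, 1 lower and 0 at an adjusted p under 0.05. The main fit had no replicate block because the methods use none. Deviations from the group mean on arrays with the same number had correlations of -0.04, -0.02 and -0.03 across probe sets. The adjusted p of Mmp9 lay between 3.4e-05 and 0.50 over these alternatives. Dim values limit the size of the Mmp9 difference. Where no cause is given, the cause was not tested.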
